A study of Homo sapiens with 6 samples.

Results

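MYC binding was examined at 10 genes that mark the epithelial or the mesenchymal state of a carcinoma cell, out of 20033 protein-coding genes of the RefSeq annotation (GRCh38.p14). The members were taken from a fixed list of symbols, and all 10 matched the annotation. The 6 epithelial members were CDH1, EPCAM, KRT8, KRT18, KRT19 and MUC1. The 4 mesenchymal members were VIM, ZEB1, SNAI1 and SNAI2. A member was said to carry a peak in a library when a peak of that library's list overlapped a window of 1000 bp on either side of either outermost end of the gene (an end peak). Peaks wholly inside the gene were counted separately.

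Epithelial cells are held together by E-cadherin, the product of CDH1, and have an intermediate filament network of keratins. In an epithelial-mesenchymal transition, repressors of the SNAI and ZEB families shut down CDH1 and other epithelial genes, and vimentin becomes the main intermediate filament. In pancreatic ductal adenocarcinoma, cells range from ductal and keratin-rich to mesenchymal-like, and fibroblasts of the tumour stroma secrete factors that can shift cells along this range. MYC is a transcription factor that pairs with MAX, binds E-box DNA such as CACGTG, and occupies many active promoters.

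The cells were MIAPaCa2, an established human pancreatic ductal adenocarcinoma line that is generally described as mesenchymal-like, with abundant vimentin and little E-cadherin. All cells were first kept without serum for 48 hours. They then received, for 3 hours, either serum-free medium conditioned by primary cancer-associated fibroblasts (CM) or new DMEM without serum, before chromatin immunoprecipitation with a MYC antibody and sequencing (ChIP-seq). There were 2 immunoprecipitated libraries per condition, and the labels do not say whether they came from separate cultures, so their spread may be technical. Input libraries, 1 per condition, were not analysed here. The question was which of these identity genes carried MYC after CM and which carried it in starved cells.

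Peaks numbered 15304 and 12797 in the lists of the CM libraries, against 4657 and 7652 in those of the DMEM libraries. The depth of sequencing is not known, so a missing peak means that none was called at the authors' threshold. The part of list length in any count below was not tested, but members were also counted in lists of equal length. Each peak has a whole-number score given by the authors, used here as a percentile, the rank of the score within its own list, where 100 is the top. Percentiles of lists of different length do not measure a change in binding. A peak also does not show that a gene is transcribed, so the labelled cell type was not checked with these markers.

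RefSeq promoters, from 250 bases before to 50 after an annotated start, were matched for KRT8, MUC1, VIM and ZEB1. The 3 printed first belong to members whose starts lay in or beside CM peaks. The fourth is that of THBS3-AS1, a long noncoding RNA gene upstream of MUC1, since it lay whole inside the MUC1 peaks of the CM libraries and in part in those of the DMEM libraries. Sequences run 5′ to 3′ on the transcribed strand in GRCh38.p14. Capitals mark E-box letters, on either strand: CACGTG, the E-box of MYC and MAX, the related CACGCG and CATGTG, and CACCTG, the E-box of SNAI and ZEB factors.
VIM, chr10:17227991-17228290, plus strand: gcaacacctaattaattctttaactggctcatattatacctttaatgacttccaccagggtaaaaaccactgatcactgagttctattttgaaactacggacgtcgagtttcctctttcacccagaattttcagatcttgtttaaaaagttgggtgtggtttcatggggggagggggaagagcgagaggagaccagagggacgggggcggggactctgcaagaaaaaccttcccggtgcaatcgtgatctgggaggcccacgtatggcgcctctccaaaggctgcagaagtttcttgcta
ZEB1, start at 31319216, chr10:31318966-31319265, plus strand: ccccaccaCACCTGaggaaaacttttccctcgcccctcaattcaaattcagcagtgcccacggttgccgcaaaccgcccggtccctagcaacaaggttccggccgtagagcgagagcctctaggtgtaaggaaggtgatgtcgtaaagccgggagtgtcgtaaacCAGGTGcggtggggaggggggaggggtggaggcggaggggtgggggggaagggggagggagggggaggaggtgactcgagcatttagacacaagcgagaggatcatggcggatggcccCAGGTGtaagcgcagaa
MUC1, chr1:155192866-155193165, minus strand: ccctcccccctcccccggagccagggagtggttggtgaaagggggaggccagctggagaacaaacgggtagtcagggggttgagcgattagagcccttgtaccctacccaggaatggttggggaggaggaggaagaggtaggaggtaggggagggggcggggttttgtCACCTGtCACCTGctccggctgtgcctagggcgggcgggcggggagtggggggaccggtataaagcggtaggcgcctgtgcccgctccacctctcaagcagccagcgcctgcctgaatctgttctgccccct
THBS3-AS1, chr1:155194747-155195046, plus strand: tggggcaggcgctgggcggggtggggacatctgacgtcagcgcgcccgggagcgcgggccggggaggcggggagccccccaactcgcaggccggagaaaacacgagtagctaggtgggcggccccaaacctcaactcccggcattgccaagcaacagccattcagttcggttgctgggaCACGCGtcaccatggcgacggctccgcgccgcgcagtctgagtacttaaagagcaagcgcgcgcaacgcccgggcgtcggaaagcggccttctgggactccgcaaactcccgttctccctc

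After CM, 7 of the 10 genes carried an end peak in both libraries: KRT8, KRT18, KRT19, MUC1, VIM, ZEB1 and SNAI1. Of all protein-coding genes, 39.1% did so. In DMEM only MUC1 and SNAI1 carried one in both libraries, against 15.9% of all genes, and both genes had one in all 4 libraries. KRT8, KRT18, KRT19 and ZEB1 had peaks in CM libraries 1 and 2 but not in DMEM, a pattern that 11% of all genes showed. VIM had peaks in all libraries except DMEM library 1, and 12.3% of all genes had both CM libraries and 1 DMEM library. CDH1, EPCAM and SNAI2 had none in any library, at an end or inside the gene. KRT8 and KRT18 overlap and share end peaks, so the 7 genes stand at 6 separate loci. Counted with peaks inside the gene, the same 7 and 2 genes were called, against 43.3% of all genes in CM and 18.1% in DMEM.

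Per library, 7 and 7 genes carried an end peak in CM, against 2 and 3 in DMEM. The mean was 7.0 ± 0 in CM and 2.5 ± 0.707 in DMEM (SD, n = 2 each), a difference of 4.5 genes. An exact two-sided permutation test over the 6 relabellings of the libraries gave p = 0.333, the smallest that 2 against 2 libraries allow. All genes showed the same order, with end peaks at 43.9% and 40.9% in the CM libraries against 16.8% and 28.1% in the DMEM libraries. With lists of equal length, the 4657 peaks of highest score in each, 3 members were called in CM (MUC1, VIM and SNAI1; 18.0% of all genes) and the same 2 in DMEM (13.9%). VIM was then the single member called in CM and in no DMEM library, against 1.93% of all genes, and the keratin genes and ZEB1 were no longer called in either condition. The difference between the conditions was then 1.0 gene per library.

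**Figure D1:**
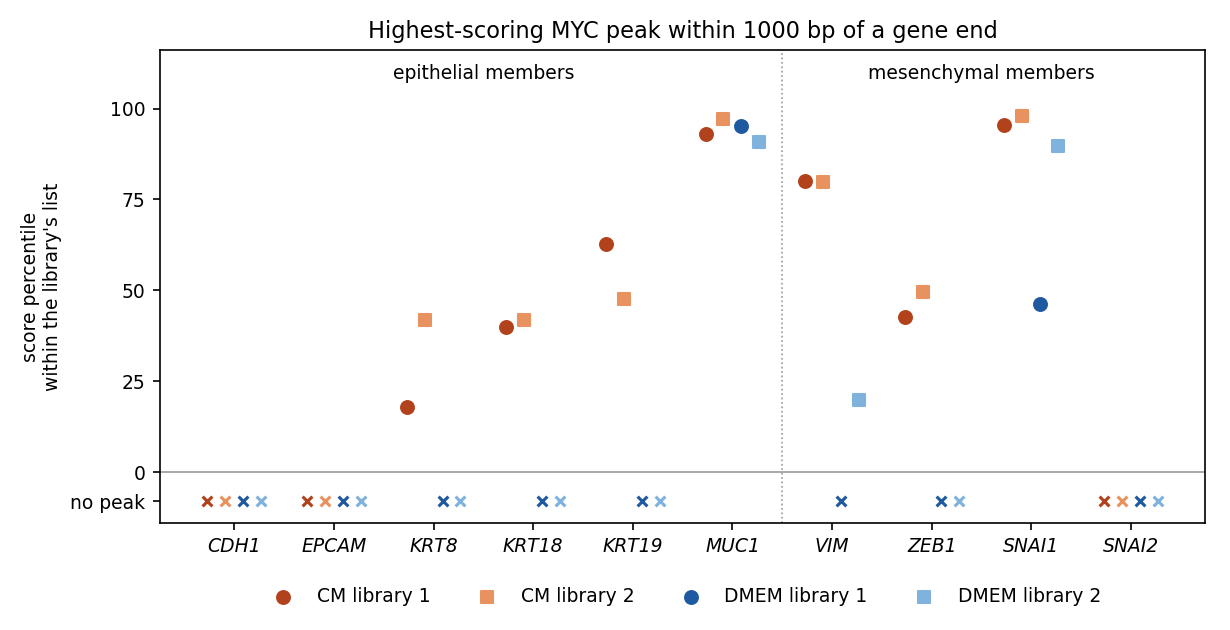
Percentile of the highest-scoring end peak of each gene within the list of each library (vertical axis, 100 is the top of that list), with crosses where a library had no end peak. MUC1 stood between 90.8 and 97.1 in every library, SNAI1 ranged from 46.1 to 98.0, and CDH1, EPCAM and SNAI2 had no peak.

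SNAI1 encodes Snail, a zinc finger repressor of CDH1. Its highest-scoring end peaks ranked at percentiles 95.6 and 98.0 in the CM libraries and at 46.1 and 89.7 in the DMEM libraries. The CM libraries were close to each other, whereas DMEM library 1 was far below DMEM library 2. On chromosome 20, where the gene spans 49982980 to 49988886, these peaks reached from 49981273 to 49983350 and from 49981484 to 49983345 in CM. In DMEM they reached from 49982207 to 49982965 and from 49982203 to 49983024. All 4 therefore covered the low-coordinate end or the sequence just outside it, which is the known start of SNAI1, and the DMEM peak intervals lay wholly within the CM ones. DMEM library 1 ended 15 bp outside the gene. CM library 1 had another, low-ranked peak inside the gene, at percentile 1.3.

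A separate peak stood farther upstream of SNAI1 in all 4 libraries. Its inner edge lay 2747 and 3216 bp from the gene in the CM libraries, at percentiles 95.6 and 96.8. In the DMEM libraries the highest-scoring peak there lay 3341 and 3087 bp from the gene, at percentiles 66.6 and 84.4. In DMEM library 1 this upstream peak ranked above the one at the start, and in the other libraries it ranked level with or below it.

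ZEB1, a zinc finger and homeodomain repressor of epithelial genes, carried end peaks at percentiles 42.7 and 49.4 in the CM libraries and none in DMEM. These are middle ranks, and the nearest DMEM peaks lay 286748 and 286102 bp away. The gene spans 31318417 to 31529804 on chromosome 10 and has 7 annotated starts in the promoter table. CM library 1 had peaks over 31318359 to 31319289, over 31319488 to 31319760 and over 31320711 to 31320972. CM library 2 had peaks over 31318368 to 31318691 and over 31318829 to 31319270. The printed promoter of the start at 31319216 lay with all 300 bases in peaks of both CM libraries. In CM library 2 the covering peak, 31318829 to 31319270, ranked at percentile 3.8. No other ZEB1 promoter lay whole in peaks of both CM libraries. ZEB1-AS1, a long noncoding RNA gene, overlaps the same stretch, from 31307717 to 31320447. No peak was found elsewhere in ZEB1, a long gene.

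SNAI2 encodes Slug, the relative of Snail. No peak lay near it on chromosome 8 (48917598 to 48921429), where the nearest was 402267 and 402263 bp away in the CM libraries and 908952 and 908898 bp in the DMEM libraries. These members thus ranged from a peak in all 4 libraries at SNAI1, over peaks in CM alone at ZEB1, to none at SNAI2.

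**Figure D2:**
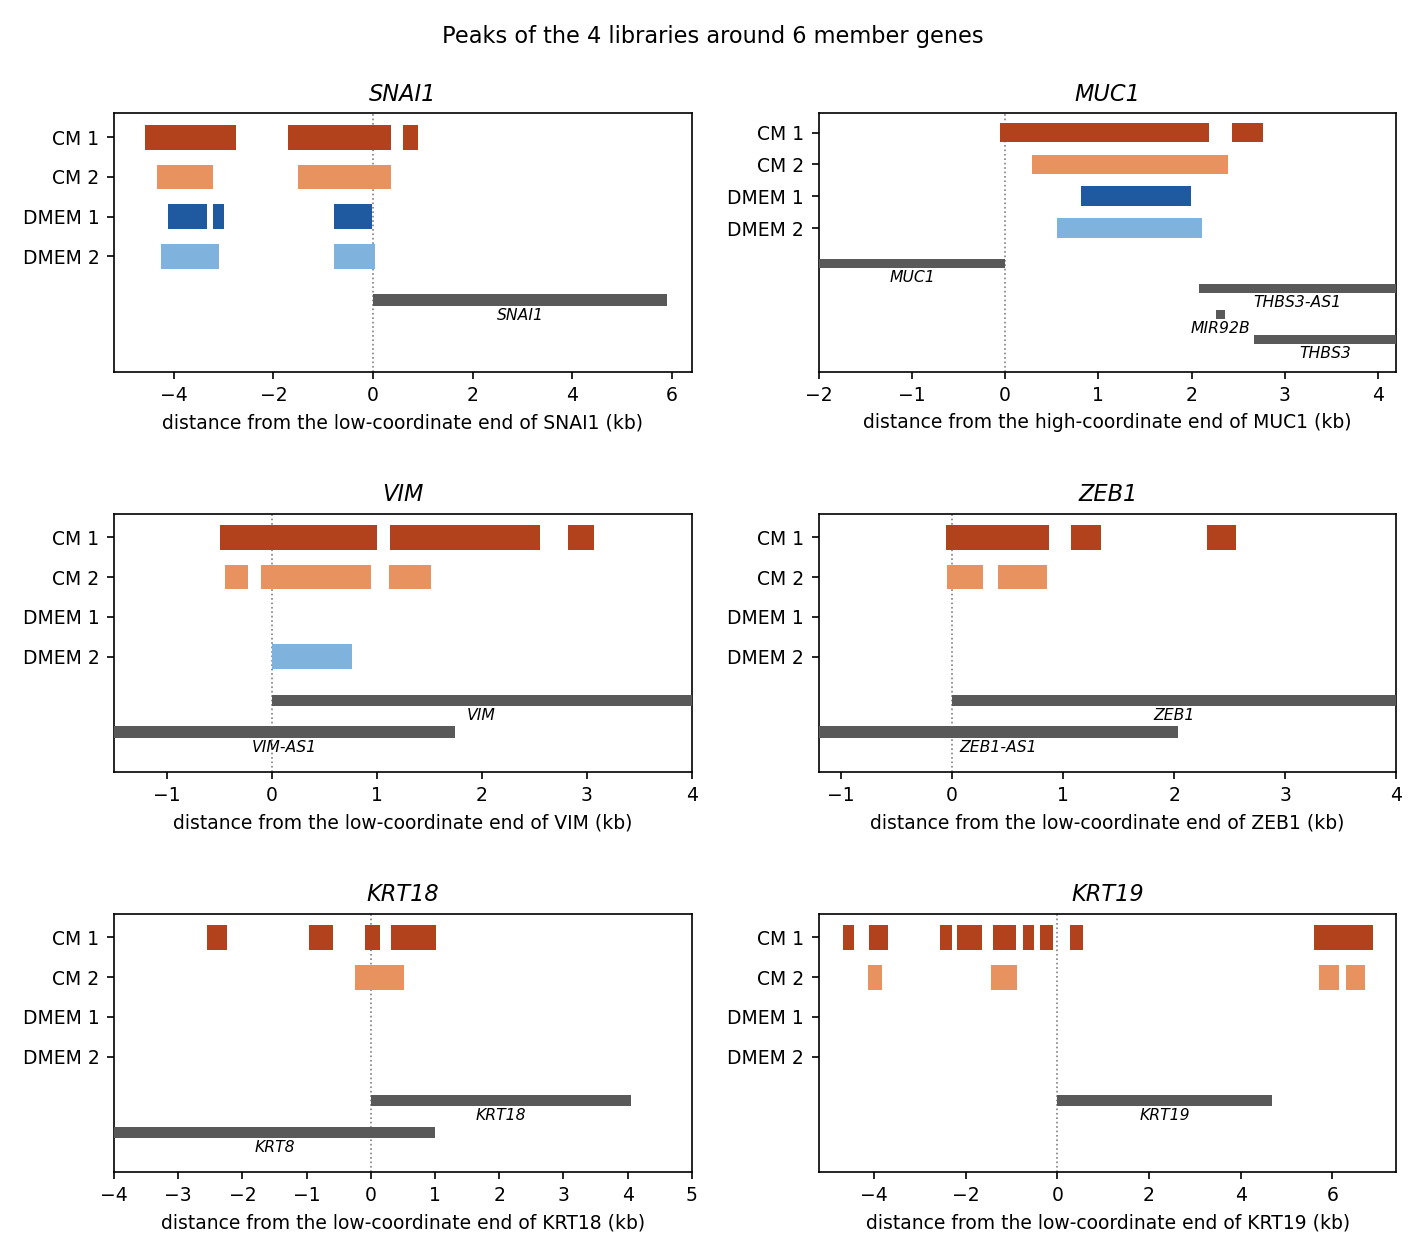
Extent of every peak (bars, 1 row per library, horizontal axis in kb from a gene end) around 6 genes, with annotated genes as grey bars below. Peaks at SNAI1 and MUC1 occur in all 4 rows, at VIM in 3 rows, and at ZEB1, KRT18 and KRT19 in the CM rows.

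VIM encodes vimentin, the filament protein of mesenchymal cells. Its highest-scoring end peaks ranked at percentiles 80.0 and 79.9 in the CM libraries, and at 19.8 in DMEM library 2, while the nearest peak of DMEM library 1 was 26858 bp away. The CM values were alike and above the single DMEM value, but the lists differ in length. In lists of equal length VIM stood at percentiles 34.2 and 44.7 in the CM libraries and had no end peak in DMEM. The gene lies on chromosome 10 at 17228241 to 17237593. The peaks spanned 17227752 to 17229240 and 17228138 to 17229188 in CM, and 17228246 to 17229008 in DMEM library 2, which is inside both CM intervals. Of the 300 promoter bases printed for VIM, 300 and 176 lay in peaks of the CM libraries, against 0 and 45 in those of the DMEM libraries. In both CM libraries a further peak followed inside the gene, from 17229371 to 17230796 at percentile 46.0 and from 17229360 to 17229760 at percentile 27.4, and CM library 1 had a short one farther in. VIM-AS1, a noncoding RNA gene from 17214239 to 17229985, overlaps the start of VIM, so the peaks at that start lie at an end of both genes.

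CDH1, the gene of E-cadherin and the classical target of the SNAI and ZEB repressors, had no peak within 1000 bp or inside its span of 68737292 to 68835537 on chromosome 16. The nearest peaks began 7212 and 7569 bp beyond its high-coordinate end in the CM libraries, and 7912 and 7909 bp beyond it in the DMEM libraries. They stood at the end of the neighbouring gene TANGO6, at percentiles 90.9 and 91.2 in CM and 53.0 and 78.3 in DMEM. EPCAM, an epithelial adhesion protein at 47369311 to 47387020 on chromosome 2, likewise had no peak within 1000 bp or inside its span in any library. At this threshold neither adhesion gene thus carried a peak, while the neighbour of CDH1 did in all 4 libraries.

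KRT8 and KRT18 encode the keratin pair of simple epithelia, and lie side by side on chromosome 12. In the annotation used, KRT8 spans 52897191 to 52949860 and so runs into KRT18, at 52948855 to 52952906. CM library 2 had a single end peak for both genes, from 52948608 to 52949365, at percentile 41.7. CM library 1 had a row of short peaks there. Those over 52948765 to 52949002 and 52949175 to 52949872, at percentiles 10.4 and 17.9, counted for both genes. A peak at 52947891 to 52948266, at percentile 39.8, was the highest-scoring end peak of KRT18 and lay outside that gene but inside KRT8. The highest-scoring KRT18 peaks of the CM libraries did not overlap and were 341 bp apart, while those of KRT8 overlapped by 191 bp. The nearest DMEM peaks were 52611 and 53097 bp from KRT18.

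Peaks of KRT8 away from KRT18 were also found in CM. At its low-coordinate end, the far end of this minus-strand gene, CM library 1 had a peak from 52896295 to 52896592, at percentile 10.4. CM library 2 had no end peak of KRT8 away from KRT18, so the call of KRT8 in both CM libraries rests on the shared peaks. Near the annotated start of KRT8 at 52926469, CM library 1 had a peak from 52927039 to 52927474 at percentile 25.5. CM library 2 had peaks from 52927273 to 52927566 at percentile 19.3 and from 52925333 to 52925773 at percentile 11.8. The promoter of that start had no base in any peak. The promoter entries held no other start of KRT8, so its outermost high-coordinate end is not an annotated start there. No peak of any library lay between 52896592 and 52925333. With peaks of a score of at least 50, KRT8 was no longer called at an end, whereas KRT18 was.

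KRT19, a keratin of ductal epithelium, lies at 41523617 to 41528308 on chromosome 17 and carried end peaks at percentiles 62.6 and 47.7 in the CM libraries and none in DMEM. These peaks stood at opposite ends of the gene and were 6461 bp apart. In CM library 1 the highest-scoring one ran from 41529211 to 41530501, 903 bp beyond the high-coordinate end, which is the known start of KRT19. In CM library 2 it ran from 41522175 to 41522749, 868 bp beyond the low-coordinate end. At that end CM library 1 had another peak, from 41522206 to 41522720, at percentile 56.1. Beyond the high-coordinate end CM library 2 had peaks that began 1016 and 1612 bp away, just outside the window, at percentiles 3.8 and 30.1. Both CM libraries thus had peaks on either side of KRT19, and a 284-bp peak of CM library 1 was the single peak within the gene. With a window of 500 bp, or with peaks placed by their midpoint, KRT19 was no longer called in CM. The nearest DMEM peaks were 19899 and 19686 bp away.

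MUC1 encodes a transmembrane mucin of ductal cells. Its peaks ranked at percentiles 93.0 and 97.1 in the CM libraries and at 95.2 and 90.8 in the DMEM libraries, so the ranges of the conditions overlapped. The gene lies on chromosome 1 at 155185824 to 155192915 and is read from its high-coordinate end. The peaks ran from 155192856 to 155195102 and from 155193208 to 155195309 in CM, and from 155193730 to 155194912 and from 155193468 to 155195029 in DMEM. The CM library 1 peak covered the printed promoter of MUC1 whole. The other peaks began 293 bp (CM library 2), 815 bp (DMEM library 1) and 553 bp (DMEM library 2) upstream of the start and held none of its promoter bases.

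The MUC1 peaks lay between MUC1 and its neighbours THBS3-AS1, MIR92B and THBS3, which all have an end within 1000 bp of each peak. The CM library 1 peak reached from MUC1 into THBS3-AS1, whereas the DMEM library 1 peak overlapped none of these genes. Of the printed THBS3-AS1 promoter, all 300 bases lay in the peaks of the CM libraries, and 166 and 283 bases in those of the DMEM libraries. MIR92B, a microRNA gene at 155195177 to 155195272, lay wholly inside the CM library 2 peak. Which of these genes the peak belongs to cannot be told apart. With a window of 500 bp MUC1 was called in CM alone, and with peaks placed by their midpoint in neither condition. Under both settings SNAI1 was the single member called in both DMEM libraries, against 14.3% and 15.2% of all genes.

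**Figure D3:**
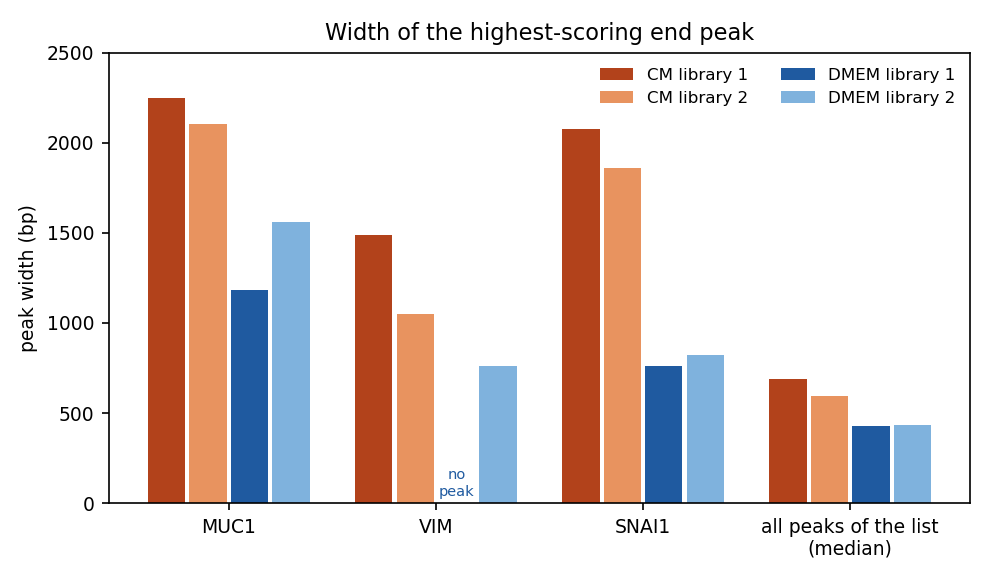
Width in bp of the highest-scoring end peak of MUC1, VIM and SNAI1 in each library, beside the median width of all peaks of that library. SNAI1 and MUC1 peaks were wider in each CM library than in either DMEM library, VIM peaks were wider than the one DMEM peak of library 2, and the medians of the lists had the same order.

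Peaks at the members with an end peak in CM and in any DMEM library differed in width. At SNAI1 they measured 2078 and 1862 bp in CM, against 759 and 822 bp in DMEM. At MUC1 the widths were 2247 and 2102 bp in CM, against 1183 and 1562 bp in DMEM. VIM had 1489 and 1051 bp in CM, against 763 bp in DMEM library 2. How many other genes have wider peaks in CM was not counted, and 2 against 2 libraries cannot pass an exact permutation test. The median widths of all peaks had the same order, 691 and 593 bp in CM against 430 and 431.5 bp in DMEM. Wider CM peaks are therefore not shown to be particular to these members. In contrast, the 14 different end peaks of the members in CM library 1 had a median width of 445.5 bp, below that list's median, and those of the keratin loci were mostly short. The 8 of CM library 2 had a median of 666.5 bp.

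The promoter letters gave little in common. CACGTG, the E-box most closely tied to MYC and MAX, was in 0 of the 11 promoters of KRT8, MUC1, VIM and ZEB1, and in 7.26% of all 35116 promoters. CACCTG, read CAGGTG on the other strand, is the E-box that SNAI and ZEB factors are known to bind. It was found in 4 of the 11, at MUC1 and ZEB1, and in 20.6% of all promoters. The 11 are not independent, since 7 belong to ZEB1 and the 2 of MUC1 overlap. The MUC1 starts, 155192909 and 155192915, share the same sites, which count for both. By gene, CACCTG was found at 2 of the 4. MUC1 has it at positions -82 and -75 from the start at 155192915, and the printed ZEB1 promoter has it at -242, -85 and 34. CACGCG, read CGCGTG on the other strand, was found in 1 of the 11, at another ZEB1 start, and CATGTG, with CACATG as its other strand, also in 1, at the last ZEB1 start, against 11.4% and 11.1% of all promoters. The THBS3-AS1 promoter has CACGCG at -71. The VIM and KRT8 promoters held none of the 4 motifs. No match overlapped another. A match is no evidence of a site, and these windows cover a small part of the peaks.

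Wider gene lists of the same programmes had lower called shares than the members, a difference that was not tested. They comprised 127 other genes in 5 lists, chosen with earlier results of these data known. Of the 75 epithelial genes, 14 had an end peak in both CM libraries (18.7%) and 0 in both DMEM libraries, against 39.1% and 15.9% of all protein-coding genes. Of the 52 mesenchymal genes, 16 were called in CM (30.8%) and 4 in DMEM (7.69%). Those called in CM with no peak in DMEM numbered 7 of the epithelial and 4 of the mesenchymal genes, 9.33% and 7.69%, near the 11% of all genes.

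**Figure D4:**
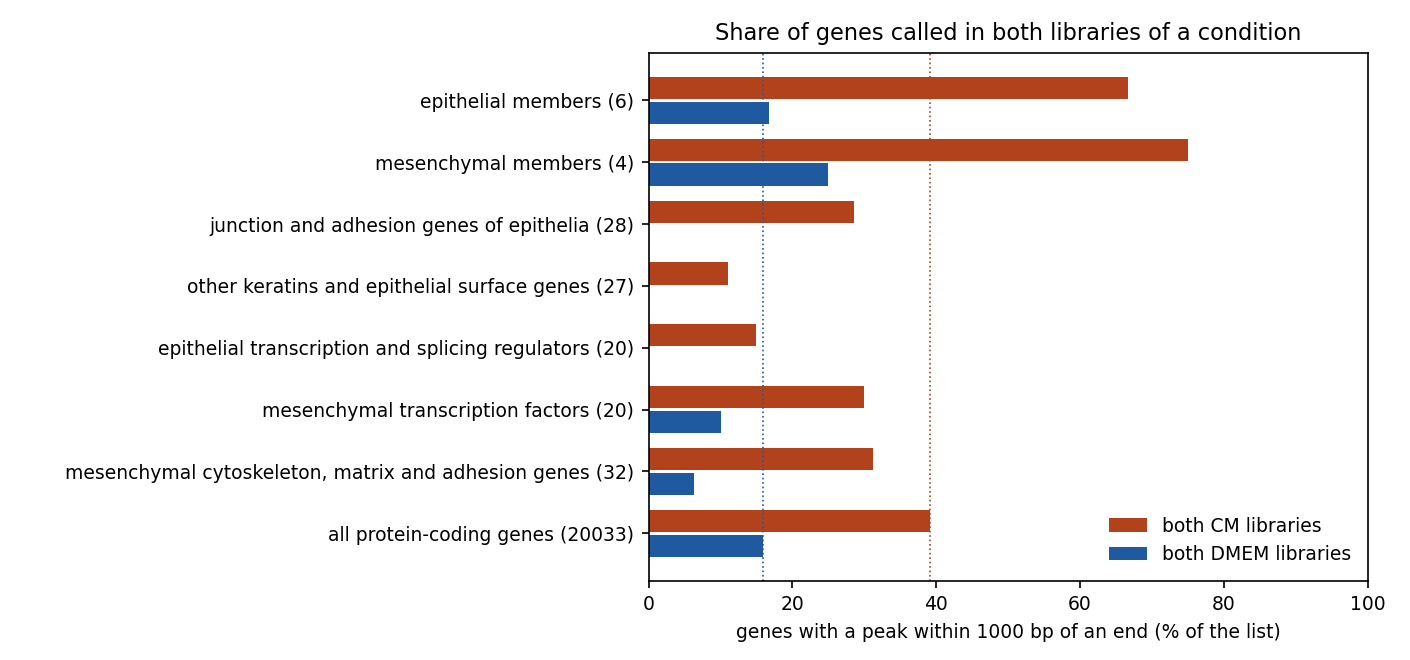
Share of the genes of each list with an end peak in both libraries of a condition (CM above DMEM), with the number of genes in parentheses. Dotted lines mark the 39.1% (CM) and 15.9% (DMEM) of all protein-coding genes; the members lie above the CM line and the 5 wider lists below it.

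Of the 28 junction and adhesion genes, 8 were called in CM (28.6%) and 0 in DMEM, against 39.1% and 15.9% of all genes. NECTIN2, a nectin of adherens junctions, led them at percentiles 97.1 and 87.1 in CM, and its peak also lies at an end of TOMM40. PKP3 (plakophilin 3, of desmosomes) had 78.3 and 35.0, CTNNA1 (alpha-catenin, which ties cadherins to actin) had 68.5 and 44.1, and ITGA6 (an integrin of hemidesmosomes) had 56.1 and 55.3. DMEM library 2 had peaks at NECTIN2 and CTNNA1, at percentiles 33.6 and 31.7. CTNNB1 (beta-catenin) carried peaks at 39.8 and 41.7 in CM and at 43.2 in DMEM library 2, an example chosen after its values were seen.

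Other keratins and epithelial surface genes had 3 of 27 called in CM (11.1%) and 0 in DMEM, against 39.1% and 15.9% of all genes. These were PARD6B, a cell polarity protein, at percentiles 71.4 and 67.5, LSR, of tricellular junctions, at 75.2 and 30.6, and KRT15 at 46.0 and 5.6. DMEM library 2 had a peak at PARD6B, at percentile 53.1. The gene USF2 also has an end within 1000 bp of an LSR peak. The KRT15 peaks are among those on the low-coordinate side of KRT19, its neighbour. Epithelial transcription and splicing regulators had 3 of 20 called in CM (15.0%) and 0 in DMEM, also below the shares of all genes. ESRP2, an epithelial splicing regulator, stood at 78.8 and 87.3 in CM and at 65.0 in DMEM library 2. KLF4, a zinc finger factor, stood at 57.5 and 82.6 in CM and at 67.0 in DMEM library 2.

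Of 20 mesenchymal transcription factors, 6 were called in CM (30.0%) and 2 in DMEM (10.0%), against 39.1% and 15.9% of all genes. FOSL1, an AP-1 subunit, ranked at 91.2 and 92.8 in CM and at 73.7 and 88.8 in DMEM, with the neighbour CCDC85B at the same peaks. TCF3, a basic helix-loop-helix factor, ranked at 84.1 and 83.1 in CM and at 56.5 and 82.5 in DMEM. SOX4 (91.6 and 79.5) and FOXC1 (82.9 and 75.8) were called in CM and had a peak in DMEM library 2 at 69.6 and 64.0. Percentiles at TCF3 and FOSL1 were thus lowest in DMEM library 1, as at SNAI1.

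Mesenchymal cytoskeleton, matrix and adhesion genes had 10 of 32 called in CM (31.2%) and 2 in DMEM (6.25%), against 39.1% and 15.9% of all genes. COL5A2, a fibrillar collagen gene, ranked at 92.3 and 89.9 in CM and at 82.6 and 94.1 in DMEM, and WDR75 has an end at the same peaks. ENG (endoglin, a TGF-beta co-receptor) stood at 79.0 and 74.8 in CM and at 50.3 in DMEM library 2. ITGB1, the beta 1 integrin, was called in CM alone, at 67.4 and 71.5. In lists of equal length, 3 of the 75 epithelial genes were called in CM and 0 in DMEM, and 8 of the 52 mesenchymal genes in CM and 4 in DMEM, against 18.0% of all genes in CM and 13.9% in DMEM.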

How the data were processed

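The submitters' processing notes name MACS2 2.1.1.20160309, Bowtie2 2.3.4, Trim Galore 0.4.3, Picard 2.9.0 and SAMtools 1.3.1 with the build GRCh38. Settings and the input used for each list are not stated. The authors deposited 1 peak list per immunoprecipitated library, with a whole-number score per peak that no header explains, and common lists of both libraries of a condition, whose score is a mean. The lists hold no reads, so depth is unknown and no scaling between libraries was possible.

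Gene positions came from the RefSeq table of GRCh38.p14, and promoter sequences, strands and starts from RefSeq promoter entries of that build. Opposite-strand entries that overlap, 2700 pairs, were all reverse complements over the shared bases. The 20033 protein-coding genes of chromosomes 1 to 22, X and Y were the background. A gene was called in a condition when both of its libraries had a peak overlapping by at least 1 bp a window of 1000 bp around either outermost end. Percentiles are mean ranks of the score within a list. Motifs were searched on both strands.

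Libraries were compared by an exact permutation test. Alternatives were windows of 500 and 2500 bp, peak midpoints, a score of at least 50, lists of equal length, annotated starts (known for 4 members and 79.1% of coding genes), the authors' common lists, and each library left out. The overlap search was tested on simulated data. Python 3.11.15, pandas 2.3.3, NumPy 2.4.6, SciPy 1.17.1 and matplotlib 3.10.9 were used. The members and lists were chosen with earlier results of these data known. All 10 members are named, with genes that share their peaks. Of each wider list, up to 4 genes called in both libraries of a condition were named by mean CM percentile, plus those called in all 4 libraries. A few results that this rule would name are not reported here.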

Additional observations from a re-analysis of the deposited data

How the results depend on the processing

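The members called in CM at an end numbered 7, against 39.1% of all genes. A window of 500 bp gave 6 (without KRT19), against 37.1% of all genes. Peak midpoints gave 5 (without KRT19 and MUC1), against 37.5%. A score of at least 50 gave 6 (without KRT8), against 33.8%. Lists of equal length gave 3, against 18.0%, and also 3 with peaks inside the gene, against 20.0%. Members called in CM and in no DMEM library numbered 4, and 1 (VIM) in lists of equal length, 3 with peak midpoints and 5, with VIM added, in the authors' common lists, where the share of all genes was 23.7%. A window of 500 bp kept 4, with MUC1 in place of KRT19, and a score of at least 50 kept 4, with VIM in place of KRT8. With each library left out in turn these counts ranged from 4 to 5 (5 without DMEM library 2, where the share of all genes was 22.4%). The counts of 4 with a library left out stood beside 11.8% to 15.3% of all genes. The CM calls stayed at 7, against 39.1% to 43.9% of all genes. The members called in DMEM, and those with an end peak in all 4 libraries, numbered 2, and 1 (SNAI1) with a window of 500 bp or with peak midpoints, also with peaks inside the gene. The share of all genes called at an end in DMEM was 15.9%, against 14.3% with 500 bp and 15.2% with midpoints. In all 4 libraries it was 15.9%, 14.2% and 14.9%. The DMEM and all-4 counts ranged from 2 to 3 with libraries left out, VIM being added without DMEM library 1, where the shares of all genes were 28.1% and 27.3%. The window of 2500 bp and annotated starts changed none of these counts. The shares of all genes were then 41.3% and 39.8% in CM, and 17.4% and 16.3% in DMEM. Annotated starts are known for 4 members, and the others kept their outermost ends, so their calls could not change. KRT8 stayed called through other peaks, at percentiles 25.5 and 19.3 in CM libraries 1 and 2. The difference of 4.5 members per library was 1.0 in lists of equal length and ranged from 4.0 to 5.0 with libraries left out. The conditions share replicate numbers, but nothing says that these mark shared material, and over 20033 genes the differences between libraries 1 and 2 correlated at 0.0137. With the replicate block that difference was 4.5 with an exact permutation p of 0.5, the smallest that 2 pairs allow. On the transcribed strand alone, 5.96% of promoters held CACGCG, 5.97% CATGTG and 10.8% CACCTG, since fewer letters are searched. Of 95 percentiles under other settings, 25 moved by more than the spread between libraries. Cases in which a setting left no end peak are not among the 95. Such cases include MUC1 with peak midpoints, and the keratin genes and ZEB1 in lists of equal length. Without read counts, a weak peak and an absent one cannot be told apart.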

Other observations

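MicroRNAs of the miR-200 family and miR-205 are known to repress ZEB1 and to maintain the epithelial state. Their genes were looked at after the values of the members had been seen. The hairpin genes MIR200B, MIR200A and MIR429 on chromosome 1, MIR205 on chromosome 1 and MIR200C on chromosome 12 had no peak within 1000 bp in any library. MIR141, at 6964097 to 6964191 on chromosome 12, had a peak in both CM libraries, from 6965024 to 6965567 at percentile 20.5 and from 6965133 to 6965595 at percentile 73.3, and none in DMEM within that window. These peaks overlap an end of PHB2, which spans 6965327 to 6970753, and DMEM library 2 had a peak there from 6965253 to 6965513 at percentile 10.1. The other end of PHB2, a mitochondrial prohibitin gene, carried a peak in all 4 libraries, at percentiles 95.5 and 97.1 in CM and 87.6 and 88.1 in DMEM.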
